A study of Mus musculus with 7 samples.

Results

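The nuclear hormone receptor family was examined through 41 of its genes, listed by name and located in the GENCODE annotation of the mouse genome build mm10, out of 21938 protein-coding genes in that annotation. Chromatin accessibility had been measured by ATAC-seq, in which a transposase cuts and tags open DNA, in alpha cells (2 libraries), beta cells (3 libraries) and delta cells (2 libraries) sorted from islets of healthy mice. All groups came from triple transgenic animals that carried mIns1-H2b-mCherry and Rosa-LSL-YFP together with either Gcg-Cre or Sst-Cre. Beta cells were gated on a histone-mCherry fusion driven by the Ins1 promoter, and alpha and delta cells on YFP that Cre had switched on from the Gcg or the Sst promoter, so the alpha and delta populations are cells with that history of Cre activity. Islets of several mice of 1 sex were pooled for each library, the labels name no treatment, and the age of the mice was not given in the sources used here.

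Nuclear receptors are transcription factors that pair a zinc-finger DNA-binding domain with a ligand-binding domain. Steroid receptors bind DNA mostly as homodimers, whereas the receptors for thyroid hormone, retinoic acid, vitamin D, fatty acids, oxysterols and bile acids bind with a retinoid X receptor (RXR) as partner, and many of them recognise repeats of the half-site AGGTCA. Without ligand, several hold corepressors at their targets, and ligand exchanges these for coactivators. Orphan receptors have no established natural ligand or were named before one was known. In islets the family is known for links between hormones or nutrients and insulin secretion, and Esrrg for beta cell maturation.

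The 41 members were scored in 7 peak lists, each called on its own library. A start peak is a peak within 1 kb of any annotated transcript start of the gene. To set lists of different length on 1 scale, peaks were ranked by significance within their list, and the start score is -log2 of the rank of the best start peak divided by 50000: it rises by 1 for each halving of the rank and is 0 where no start peak is among the 50000 strongest. A start peak outside those 50000 also has the score 0.00, and where a list had no start peak at all this is said. The score orders peaks within a library and is not an amount of open chromatin. The lists held between 75860 and 158066 distinct peaks, except beta 1 with 518503, of which 25903 reached a -log10 q of 2. The deposited lists carry no read counts, so the number of reads behind a call could not be read from them. The read totals that the study states per library entered no fit here. By those totals every beta library had fewer uniquely mapped reads than every alpha library. Depth and cell type thus cannot be told apart between alpha and beta cells. A call made in fewer cells cannot be told apart from a weaker signal per cell. Beta cells were gated in both the Gcg-Cre and the Sst-Cre line, and the names of the 3 beta lists as deposited carry alpha or delta instead of beta; the sample labels were used. The study states that the cell types it compared came from the same animals, so beta libraries may share animals with alpha or delta libraries. Which ones do is not given in the sources used here, and the main fits treated all 7 libraries as independent. At starts of marker genes the lists followed the labels in part: Gcg had a start peak in both alpha lists, in no beta list and in 1 delta list, Ins2 in 2 of 3 beta lists, in no alpha list and in 1 delta list, and Sst in both delta lists, in no alpha list and in 1 beta list, while Ins1 had one in all 7. The Sst peak of beta 1 had a start score of 1.13, and those of both delta lists were outside the 50000 strongest. All Ins2 start peaks were outside them too. Of 7 alpha marker genes, 7, 5 and 6 had a start peak in at least 2 alpha, beta and delta replicates. The same count gave 6, 8 and 7 of 8 beta markers and 4, 1 and 5 of 5 delta markers, so many markers were open in several cell types. Of the markers of other cells, acinar genes had a start peak in at least 2 replicates for 1, 0 and 1 of 6 genes in alpha, beta and delta cells, endothelial genes for 0 of 5 in each, immune genes for 0, 3 and 1 of 5, duct genes for 2, 1 and 2 of 4 and stromal genes for 3, 2 and 2 of 5. The part of such cells in the values below was not tested.

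Most of the family had an open start in every cell type. In alpha cells 34 of 41 members (82.9%) had a start peak in at least 2 replicates, against 62.2% of all protein-coding genes, in beta cells 33 (80.5%) against 63.6%, and in delta cells 32 (78%) against 59.2%. In all 7 libraries a start peak was called at 24 members (58.5%), against 46.6% of all genes, and 16 (39%) kept it among the 50000 strongest peaks of every list, against 38.3%. The members had a median of 6 annotated transcript starts and a median length of 49.2 kb, compared with 3 starts and 17.4 kb over all genes, and each further start adds a window in which a peak can count. Counted at the 5' end of each gene alone, 22 (53.7%), 21 (51.2%) and 24 (58.5%) members had a start peak in at least 2 alpha, beta and delta replicates, against 56.8%, 56.1% and 54.1% of all genes. When peaks below a -log10 q of 2 were dropped, 14 members (34.1%) were open in all 7 libraries, against 34.3%. By these 2 counts the family lay near all genes.

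**Figure D1:**
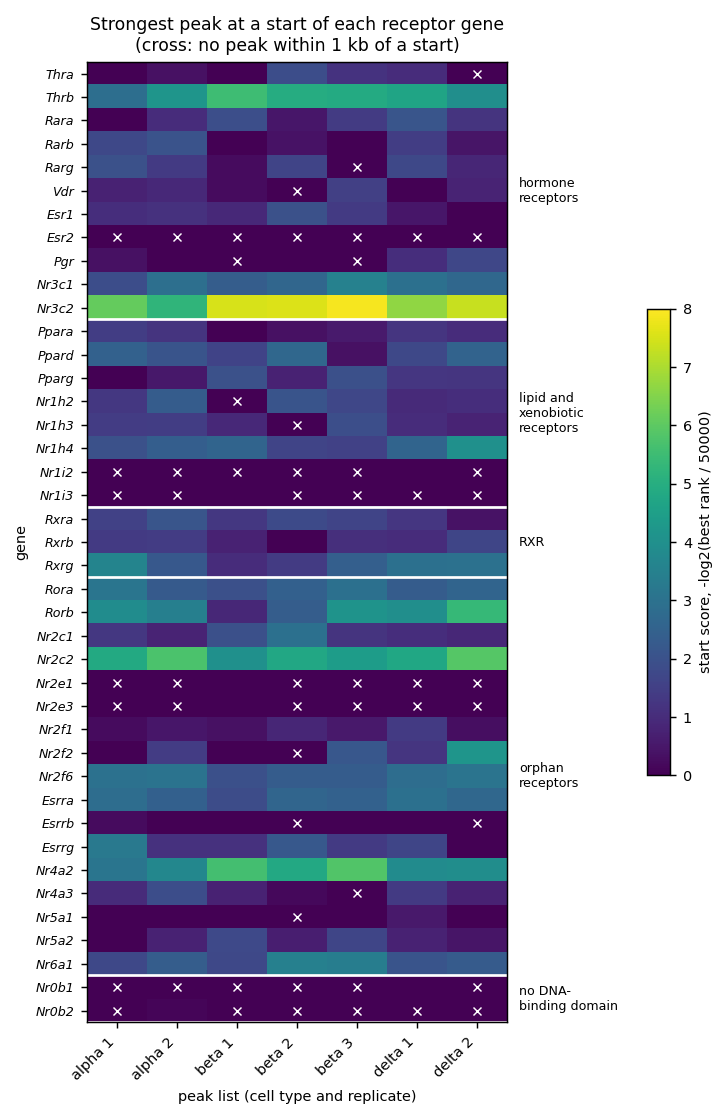
Start scores of the 41 receptor genes (rows, grouped by role) in the 7 peak lists (columns). The colour gives -log2 of the rank of the best start peak over 50000, from 0 to 8, and a white cross marks a list without any start peak. Nr3c2 was the strongest row in every list (5.22 to 7.88) but alpha 2, where Nr2c2 stood higher at 5.72, and Esr2 had a cross in all 7.

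The members open in all 7 libraries came from each role group whose receptors bind DNA. They were the hormone receptor genes Thrb, Rara, Rarb, Esr1, Nr3c1 and Nr3c2, the lipid sensor genes Ppara, Ppard, Pparg and Nr1h4, the 3 RXR genes, and the orphan receptor genes Rora, Rorb, Nr2c1, Nr2c2, Nr2f1, Nr2f6, Esrra, Esrrg, Nr4a2, Nr5a2 and Nr6a1. At the other end, Esr2, the estrogen receptor beta gene, had no start peak in any list, which was the case for 11.2% of all genes. Another 6 members had one in a single list: Nr1i2 and Nr0b1 in delta 1, Nr1i3, Nr2e1 and Nr2e3 in beta 1, and Nr0b2 in alpha 2. These encode the xenobiotic sensors PXR and CAR, the retinal and neural receptors Nr2e1 and Nr2e3, and both members that lack a DNA-binding domain, DAX1 (Nr0b1) and SHP (Nr0b2). Of the 6, only the Nr0b2 peak was among the 50000 strongest of its list, with a start score of 0.11.

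Among the hormone receptors, Nr3c2 had the highest start scores. It encodes the mineralocorticoid receptor, which binds aldosterone and also cortisol and corticosterone, and lies on chromosome 8 from 76899442 to 77245012 on the plus strand. Its start scores were 6.12 and 5.22 in alpha cells, 7.51, 7.59 and 7.88 in beta cells, and 6.66 and 7.32 in delta cells. Its best start peak was thus number 212 in the list of beta 3 and number 1342 in that of alpha 2. The beta values lay above all alpha and delta values, and the delta values above the alpha values. The summit stood 153 to 190 bp before a transcript start at position 76902288, which is 2.85 kb inside the gene as annotated. A second peak at the gene's 5' end itself was weaker, at 2.16 and 2.64 in alpha cells, 1.97, 1.46 and 3.18 in beta cells and 3.71 and 2.99 in delta cells, and here alpha and beta values overlapped. Delta values lay above alpha values at this start too, so only the top place of the beta values belonged to the inner start. Gm10649 also starts within 1 kb of a start of Nr3c2, so the peak cannot be assigned to 1 of the genes. The RefSeq promoter at that start (chr8:76902080-76902379, GRCm38.p6, plus strand, 250 bases before to 50 after the start) is shown because it carried the strongest start peak of the family; capitals mark CG dinucleotides.

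Nr3c2: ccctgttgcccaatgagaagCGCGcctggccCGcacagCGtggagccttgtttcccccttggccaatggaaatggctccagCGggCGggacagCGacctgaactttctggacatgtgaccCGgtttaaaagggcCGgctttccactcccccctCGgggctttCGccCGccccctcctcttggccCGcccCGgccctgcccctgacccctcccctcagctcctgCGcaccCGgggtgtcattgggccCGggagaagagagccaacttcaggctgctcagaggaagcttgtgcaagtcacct

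Thrb, the thyroid hormone receptor beta gene on chromosome 14 (17660261 to 18038090, plus strand), followed with 2.89 and 4.18 in alpha cells, 5.52, 4.96 and 4.89 in beta cells, and 4.66 and 3.96 in delta cells. Again every beta value lay above every alpha and delta value, whereas alpha and delta values overlapped. Its summit stood between 12 bp before and 23 bp after a start in the 5' cluster. The sister gene Thra, for thyroid hormone receptor alpha, was much weaker: 0.00 and 0.37 in alpha cells, 0.00, 1.90 and 1.16 in beta cells and 1.02 in delta 1, with no start peak in delta 2. Nr3c1, the glucocorticoid receptor gene on chromosome 18, was open in all lists at 1.90 and 2.92 in alpha cells, 2.36, 2.64 and 3.52 in beta cells and 2.96 and 2.68 in delta cells, and the 3 cell types overlapped.

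The retinoic acid receptor genes did not share 1 pattern. Rarb had start scores of 1.73 and 2.04 in alpha cells, 0.00, 0.40 and 0.01 in beta cells, and 1.47 and 0.46 in delta cells. The alpha values were thus highest and the beta values lowest without overlap. Gm48162 also starts within 1 kb of a start of Rarb. Rara had 0.00 and 1.02 in alpha cells, 1.93, 0.47 and 1.39 in beta cells, and 2.12 and 1.21 in delta cells. Rarg had 1.99 and 1.36 in alpha cells, 0.25 and 1.64 in beta 1 and beta 2, no start peak in beta 3, and 1.72 and 0.87 in delta cells. Beta values of Rara and Rarg overlapped with both other cell types. The Vdr gene, for the vitamin D receptor, stayed at or below 1.51 and lacked a start peak in beta 2.

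Both sex steroid receptor genes with a start peak differed in order between the cell types. Esr1, for estrogen receptor alpha, had 1.05 and 1.14 in alpha cells, 0.93, 1.98 and 1.35 in beta cells, and 0.47 and 0.00 in delta cells, so that the delta values were lowest. Pgr, the progesterone receptor gene, was high in delta cells, at 1.06 and 1.71, and had 0.37 and 0.00 in alpha cells. In beta cells Pgr had a start peak only in beta 2, with a score of 0.00. The summits of the Pgr peaks lay 390 to 1286 bp after a start, inside the gene, and none of its peaks overlapped the 300 bp RefSeq promoter.

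Thrb and Rarb represent the 2 opposite orders, highest and lowest in beta cells, and their RefSeq promoters at the starts with those peaks are shown with CG in capitals (GRCm38.p6; Thrb chr14:17660710-17661009, plus strand; Rarb chr14:16575427-16575726, minus strand). The Thrb promoter held 37 CG in 300 bp and the Rarb promoter 17.

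Thrb: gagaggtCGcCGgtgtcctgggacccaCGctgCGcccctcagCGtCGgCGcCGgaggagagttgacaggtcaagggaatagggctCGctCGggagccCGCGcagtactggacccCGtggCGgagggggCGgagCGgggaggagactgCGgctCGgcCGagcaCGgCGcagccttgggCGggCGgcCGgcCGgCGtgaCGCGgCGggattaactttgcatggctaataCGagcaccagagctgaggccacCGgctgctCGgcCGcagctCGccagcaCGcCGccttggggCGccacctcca
Rarb: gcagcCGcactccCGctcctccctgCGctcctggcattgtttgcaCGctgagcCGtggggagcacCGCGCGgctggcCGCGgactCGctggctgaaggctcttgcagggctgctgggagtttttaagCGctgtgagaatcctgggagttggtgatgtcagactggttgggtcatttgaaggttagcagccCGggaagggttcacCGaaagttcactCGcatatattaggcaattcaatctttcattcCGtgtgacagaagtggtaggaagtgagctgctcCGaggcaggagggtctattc

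The lipid sensors with a DNA-binding partner in RXR were open at moderate strength. Nr1h4, for the bile acid receptor FXR, had the highest mean start score of this group, at 1.98 and 2.40 in alpha cells, 2.59, 1.65 and 1.54 in beta cells, and 2.59 and 4.02 in delta cells. The delta values lay above the alpha and beta values, delta 1 by only a small margin over beta 1. Pparg, the target of thiazolidinedione drugs, had 0.00 and 0.50 in alpha cells, 1.98, 0.76 and 1.95 in beta cells, and 1.25 and 1.22 in delta cells, with alpha values lowest. Ppara, an activator of fatty acid oxidation, had 1.45 and 1.22 in alpha cells, 0.00, 0.35 and 0.57 in beta cells, and 1.24 and 1.03 in delta cells, with beta values lowest. Ppard had 2.48 and 2.08 in alpha cells, 1.62, 2.66 and 0.36 in beta cells, and 1.74 and 2.56 in delta cells, and overlapped throughout. The oxysterol receptor genes Nr1h2 and Nr1h3 had start scores up to 2.33 and 1.91 and each lacked a start peak in 1 beta list.

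The common partners were present in all lists. Rxrg had 3.61 and 2.22 in alpha cells, 1.03, 1.38 and 2.41 in beta cells, and 2.96 and 2.99 in delta cells, so the delta values lay above the beta values and the alpha values overlapped both. Rxra had 1.54 and 2.10 in alpha cells, 1.30, 1.80 and 1.63 in beta cells, and 1.26 and 0.38 in delta cells. By this best start the delta values were lowest, with a small margin between beta 1 and delta 1. Rxrb had 1.37 and 1.43 in alpha cells, 0.78, 0.00 and 1.08 in beta cells, and 1.03 and 1.66 in delta cells, and other genes (Slc39a7 and Gm20427) start within 1 kb of its starts.

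Orphan receptors included the next strongest starts of the family. Nr2c2, the testicular receptor 4 gene, was the strongest by mean, with 4.87 and 5.72 in alpha cells, 4.0, 4.80 and 4.43 in beta cells, and 4.78 and 5.90 in delta cells. Alpha values lay above beta values, and delta 1 fell between the beta values. Nr4a2, an immediate early gene also known as Nurr1 on chromosome 2 (57106830 to 57124003, minus strand), had 3.11 and 3.71 in alpha cells, 5.62, 4.83 and 5.84 in beta cells, and 3.85 and 3.93 in delta cells. All 3 beta values stood above the others, and delta values lay above alpha values. Rorb, a retinoid-related orphan receptor gene, had 3.89 and 3.46 in alpha cells, 0.88, 2.35 and 4.12 in beta cells, and 3.95 and 5.36 in delta cells, and the beta values ran from below the alpha values to above them. Nr2f2, for COUP-TFII, reached 4.17 in delta 2 but 1.22 in delta 1, and its alpha values were 0.00 and 1.42, while beta 1 and beta 3 had 0.00 and 2.18 and beta 2 had no start peak. The summit of its delta 2 peak lay 1268 bp before the start.

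Nr2f6, a repressor related to the COUP-TF receptors, separated beta cells in a narrow range, with 2.99 and 3.05 in alpha cells, 1.96, 2.33 and 2.34 in beta cells, and 2.85 and 3.08 in delta cells. Esrra, which controls mitochondrial genes, had 2.85 and 2.44 in alpha cells, 1.86, 2.61 and 2.49 in beta cells, and 2.96 and 2.68 in delta cells. Nr6a1 and Rora were open in all lists, with start scores of 1.73 to 3.49 and 1.96 to 3.11. Esrrg had 3.23 and 1.14 in alpha cells, 1.15, 2.20 and 1.35 in beta cells, and 1.68 and 0.00 in delta cells, and the cell types overlapped. Nr4a3 had 1.00 and 1.89 in alpha cells, 0.78 and 0.17 in beta 1 and beta 2, no start peak in beta 3, and 1.36 and 0.76 in delta cells. Nr2c1 had 1.28 and 0.78 in alpha cells, 1.97, 2.94 and 1.20 in beta cells, and 1.03 and 0.91 in delta cells, and Nr5a2 ranged from 0.00 in alpha 1 to 1.77 in beta 1. Nr2f1 ranged from 0.23 to 1.37. Esrrb and Nr5a1, with start peaks in 5 and 6 lists, reached only 0.24 and 0.55.

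**Figure D2:**
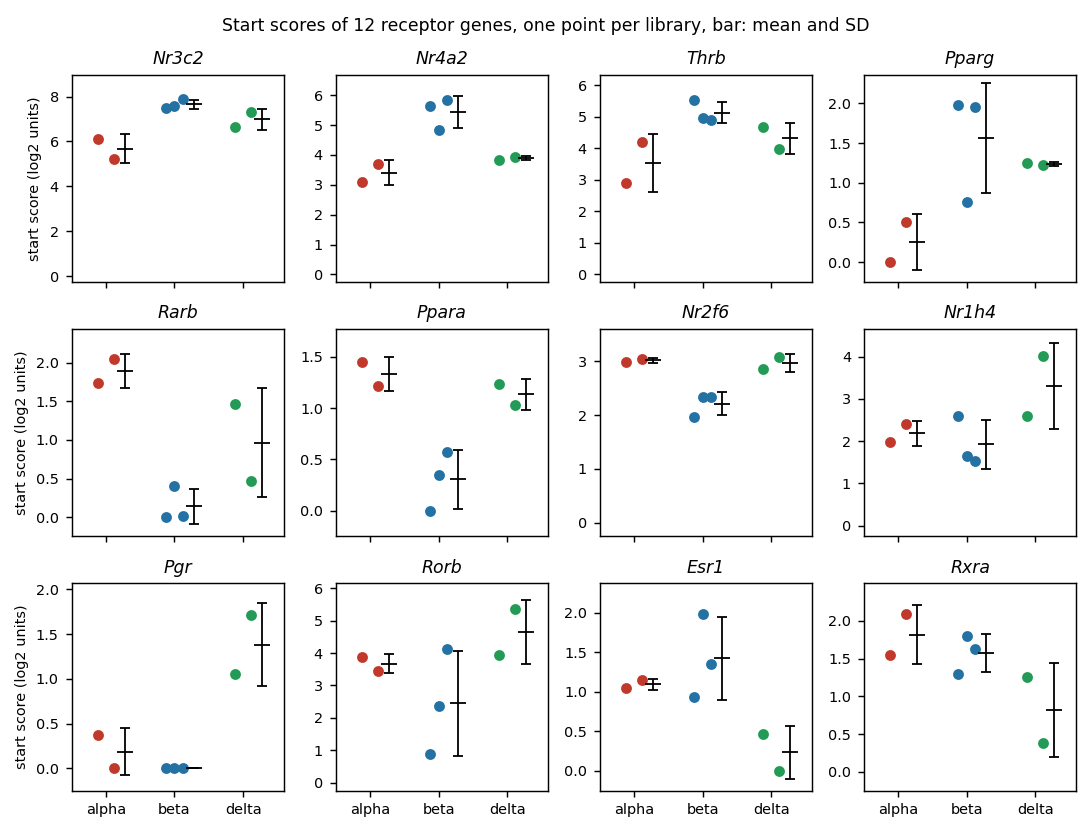
Start scores (vertical axis, log2 units, each panel on its own scale) of 12 receptor genes in alpha, beta and delta libraries, with 1 point per library and the mean ± SD beside the points. Nr3c2, Nr4a2 and Thrb had all 3 beta points on top, and Rarb, Ppara and Nr2f6 had them at the bottom.

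Comparison of the cell types asked whether these differences passed a test fitted on all genes. Start scores were fitted with limma on 13768 genes with a start score above 0 in at least 2 libraries, which 32 of the 41 members passed, leaving out the 7 with a start peak in at most 1 list, Esrrb and Nr5a1. No member passed an adjusted p of 0.05 (Benjamini-Hochberg over all genes tested) in any of the 3 comparisons. Between alpha and beta cells, 0.0944% of the genes tested passed, 13 genes in all, each higher in alpha cells. Between alpha and delta cells 0% passed, while 1063 genes had an unadjusted p under 0.05, and between beta and delta cells 0.00726% passed, a single gene. With an unadjusted p under 0.05 there were 7, 2 and 4 members in the 3 comparisons, of 2526, 1063 and 1730 genes in all. The median difference of the 32 members was 0.24 for alpha minus beta, -0.05 for alpha minus delta and -0.12 for beta minus delta, beside 0.30, 0.06 and -0.22 over all genes tested. By the names of the lists, both alpha libraries and beta 1 were read in 1 sequencing lane and both delta libraries, beta 2 and beta 3 in another. Lane and cell type thus cannot be told apart between alpha and delta cells. Between alpha and beta cells they go together in large part, since beta 1 alone shared the alpha lane. No lane term was fitted.

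For alpha against beta cells, the largest member differences were those of Nr4a2 and Nr3c2, both with higher scores in beta cells. Nr4a2 was 2.02 ± 0.48 (SE) lower in alpha than in beta cells (95% interval of alpha minus beta -3.10 to -0.95, limma adjusted p = 0.0773), a mean of 3.41 against 5.43. Nr3c2 differed by -1.99 ± 0.51 (-3.13 to -0.84, limma adjusted p = 0.0929), and by 0.20 in the other direction when only the gene's 5' end was counted. Thrb differed by -1.59 ± 0.53 (-2.77 to -0.42, limma adjusted p = 0.155) and Pparg by -1.31 ± 0.51 (-2.46 to -0.17, limma adjusted p = 0.218). In the other direction stood Rarb at 1.75 ± 0.43 (0.78 to 2.71, limma adjusted p = 0.0845), Rxrg at 1.31 ± 0.64, Rorb at 1.22 ± 0.85 and Nr4a3 at 1.13 ± 0.45, the last 3 with limma adjusted p of 0.313, 0.472 and 0.227. These intervals are not adjusted for the number of genes, and those of Rxrg and Rorb included 0.

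In the comparisons with delta cells other members led. For beta minus delta, Pgr differed by -1.38 ± 0.31 (-2.07 to -0.70, limma adjusted p = 0.125), Rorb by -2.20 ± 0.85 (limma adjusted p = 0.321), Nr2f2 by -1.97 ± 0.95 (limma adjusted p = 0.442) and Nr1h4 by -1.38 ± 0.63 (limma adjusted p = 0.407). Higher in beta cells stood Nr4a2 at 1.54 ± 0.48 (0.47 to 2.62, limma adjusted p = 0.219), Esr1 at 1.19 ± 0.46 (0.17 to 2.21, limma adjusted p = 0.321), Nr2c1 at 1.07 ± 0.61 and Thrb at 0.82 ± 0.53. For alpha minus delta, Nr2f2 differed by -1.98 ± 1.04, Nr3c2 by -1.32 ± 0.56, Pgr by -1.20 ± 0.34 and Rara by -1.16 ± 0.65, and in the other direction Esrrg by 1.34 ± 0.84, Rxra by 1.00 ± 0.58, Rarb by 0.92 ± 0.47 and Esr1 by 0.86 ± 0.50. The lowest limma adjusted p of these was 0.444, for Pgr. The comparisons share libraries, so their values are not independent of each other.

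**Figure D3:**
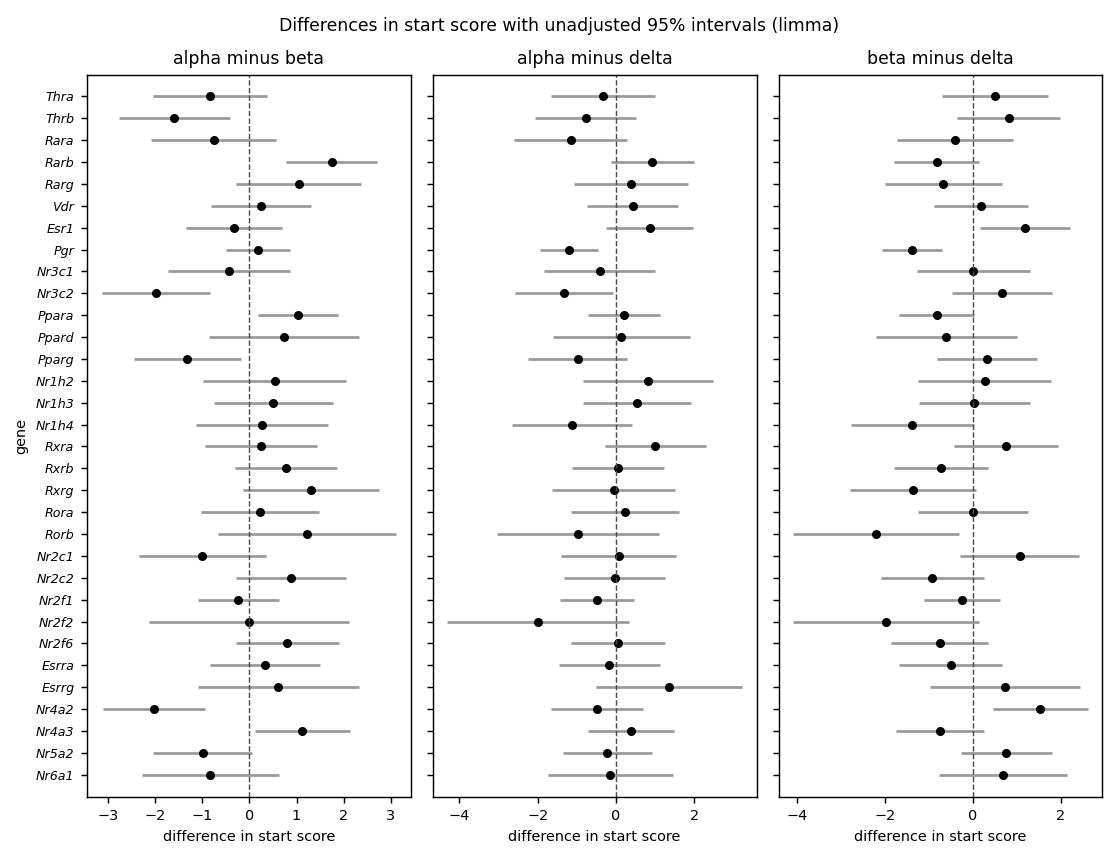
Differences in start score between cell types (horizontal axes, log2 units) for the 32 receptor genes tested, with limma estimates as points and unadjusted 95% intervals as lines. No gene passed the adjusted threshold, and Nr4a2, Nr3c2, Thrb, Pparg, Rarb, Ppara and Nr4a3 had intervals clear of 0 in the alpha minus beta panel.

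Counted by replicates that do not overlap, which is a description without a test, 3 of the 32 members (9.38%) had every beta score above every alpha and delta score, against 3.04% of all genes tested: Thrb, Nr3c2 and Nr4a2. Another 3 (9.38%), Rarb, Ppara and Nr2f6, had every beta score below all others, against 11.7%. Alpha scores stood wholly above beta scores at 6 members (18.8%), against 25.2% of all genes, and below them at 4 (12.5%), against 8.18%. Alpha scores stood above delta scores at 5 (15.6%), Rarb, Esr1, Nr1h2, Nr1h3 and Rxra, against 23.7%, and below them at 7 (21.9%), against 18.8%. Beta scores stood above delta scores at 6 (18.8%), against 6.48%, and below them at 7 (21.9%), against 20.2%. The 6 with beta above delta were Thrb, Esr1, Nr3c2, Rxra, Nr2c1 and Nr4a2. For Rxra this held only for the best start of each list, and beta and delta values overlapped at each start taken alone.

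Several long receptor genes had their strongest start peaks far inside the gene. Rarb had its start peaks in all 7 lists at a start cluster 243.3 kb downstream of the gene's 5' end, whereas the 5' end had a peak in beta 1 alone. Rora was open in all 7 lists at a start 635.9 kb downstream, with start scores of 1.96 to 3.11, and its 5' end had a peak in the 6 lists other than alpha 1, with scores of at most 1.88. Esrrg was open in all 7 at 389.0 kb, and its 5' end had a peak in 3 lists with a score of at most 0.24. A RefSeq promoter of Esrrg between these starts (chr1:187651991-187652290) had a peak in 5 lists. It lay at no GENCODE start, so its peaks did not count in the start score. Nr3c1 was open in all 7 at 28.1 kb and had no peak at the 5' end. Esr1 was open in 6 lists at 101.1 kb, with scores of 0.47 to 1.98. Its 5' end had a peak in 5 lists with scores of at most 0.47, among them delta 2, which lacked the inner peak and whose value came from the 5' end.

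Other members were open in all 7 lists at more than 1 start. Nr1h4 had peaks in all 7 lists at the 5' end and at a start 26.9 kb inside. The upstream start had 1.98 and 2.40 in alpha cells, 2.14, 1.04 and 1.15 in beta cells and 2.59 and 4.02 in delta cells, and the inner one 1.09 and 1.16 in alpha cells, 2.59, 1.65 and 1.54 in beta cells and 1.40 and 1.44 in delta cells. The highest values were thus delta values at the upstream start and beta values at the inner start. Rxra had peaks in all 7 lists at the 5' end and at 63.8 kb. Its 5' end had 1.30, 1.80 and 0.00 in beta cells and 0.00 and 0.38 in delta cells. At 63.8 kb it had 1.11, 0.26 and 1.63 in beta cells and 1.26 and 0.35 in delta cells. Beta and delta values thus overlapped at each start, while alpha values lay above delta values at both. Nr4a2 had a second start at 8.97 kb with a peak in all 7 lists, at 2.25 and 3.50 in alpha cells, 3.34, 2.90 and 3.45 in beta cells and 2.01 and 3.32 in delta cells, and here the cell types overlapped although beta values were highest at the 5' end. Pparg was open at its upstream-most start in all 7 lists, while the start at 61.1 kb had a peak in beta 1 alone, with a score of 0.00. Whether the transcripts from these starts were made was not measured.

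**Figure D4:**
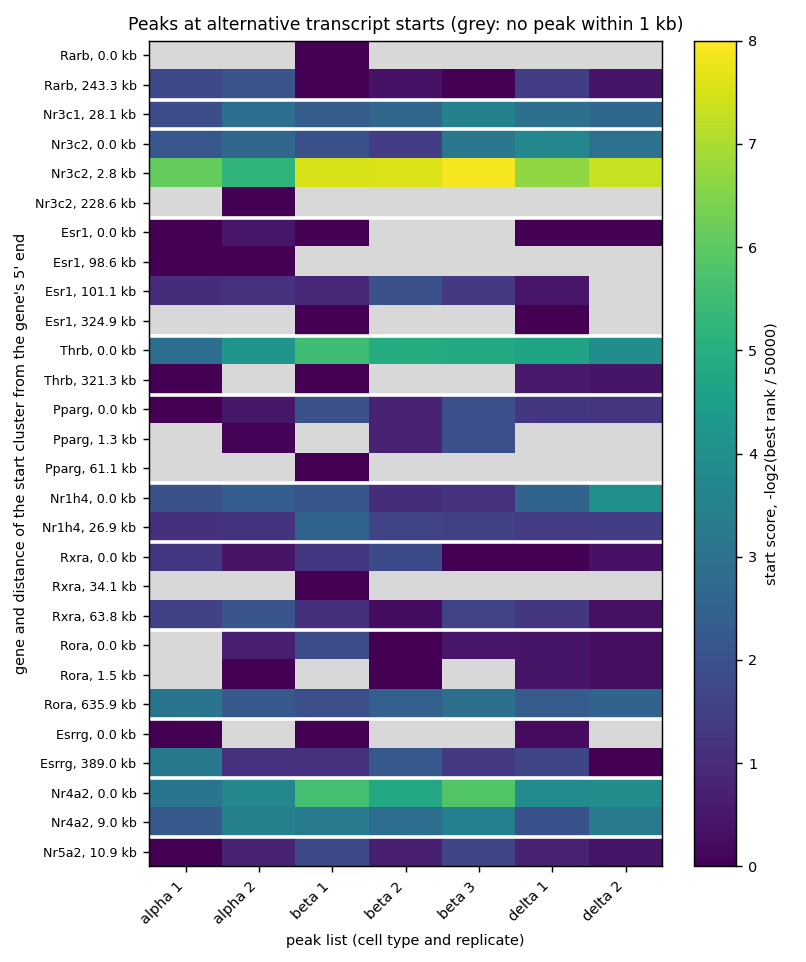
Start scores at GENCODE start clusters with a peak (rows: gene and distance from the gene's 5' end in kb) for 12 receptor genes. Columns are the 7 peak lists, and grey marks no peak within 1 kb. Rarb, Rora and Esrrg had peaks in all 7 lists at starts 243.3, 635.9 and 389.0 kb from the 5' end, and at the 5' end in 1, 6 and 3 lists, while Nr1h4, Rxra and Nr4a2 had peaks in all 7 lists at 2 starts.

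Open starts were also set beside the CpG content of the promoters. Of the 41 members, 38 had at least 1 RefSeq promoter of 300 bp in the table used, and 21 of these had an observed over expected CpG of at least 0.6 in 1 of them, as did 52.5% of 16522 genes. Of the 21, 18 (85.7%) had a start peak in all 7 libraries and 1 (4.76%), Nr2e1, in at most 1, against 74.4% and 2.57% of all such genes. Of the 17 others, 5 (29.4%) had a start peak in all 7 libraries and 6 (35.3%) in at most 1, against 19.9% and 44.5%. Members thus differed between the 2 classes in the direction in which all genes did. The median of the mean start score was 1.44 in the first set and 0.60 in the second. The 5 of the second set open in all 7 were Nr2c2, at 0.599 observed over expected and just under the limit, Nr3c2 at 0.54, Esr1 at 0.46, Nr1h4 at 0.45 and Nr5a2 at 0.41. The promoter tables cover the RefSeq starts only, and for Rora the promoter given is at the 5' end, not at the open inner start. A promoter of each kind is shown with CG in capitals: that of Nr4a2 (chr2:57123954-57124253, GRCm38.p6, minus strand), with 52 CG and a GC content of 81.7%, that of Nr1h4 at the inner start (chr10:89506609-89506908, minus strand), with 7 CG and a peak in all 7 lists, and that of Nr0b2 (chr4:133553126-133553425, plus strand), with 3 CG and a peak in alpha 2 alone.

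Nr4a2: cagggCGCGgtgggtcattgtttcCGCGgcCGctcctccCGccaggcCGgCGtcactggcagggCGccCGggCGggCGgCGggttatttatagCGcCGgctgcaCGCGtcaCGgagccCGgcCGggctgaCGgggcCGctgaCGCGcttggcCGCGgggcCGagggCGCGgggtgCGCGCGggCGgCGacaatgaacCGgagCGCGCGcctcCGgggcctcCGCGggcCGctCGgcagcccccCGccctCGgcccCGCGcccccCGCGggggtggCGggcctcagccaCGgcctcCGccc
Nr1h4: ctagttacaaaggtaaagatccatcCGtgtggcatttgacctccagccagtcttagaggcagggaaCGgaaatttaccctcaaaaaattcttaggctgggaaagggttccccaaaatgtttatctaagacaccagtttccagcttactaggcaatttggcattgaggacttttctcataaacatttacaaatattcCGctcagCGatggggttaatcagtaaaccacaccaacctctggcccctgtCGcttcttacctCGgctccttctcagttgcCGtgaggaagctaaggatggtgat
Nr0b2: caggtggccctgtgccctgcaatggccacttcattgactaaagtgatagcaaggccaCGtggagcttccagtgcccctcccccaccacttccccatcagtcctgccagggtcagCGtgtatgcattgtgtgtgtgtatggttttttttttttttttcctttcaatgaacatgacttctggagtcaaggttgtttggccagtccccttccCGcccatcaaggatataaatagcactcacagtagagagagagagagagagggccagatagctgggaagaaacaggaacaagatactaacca

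**Figure D5:**
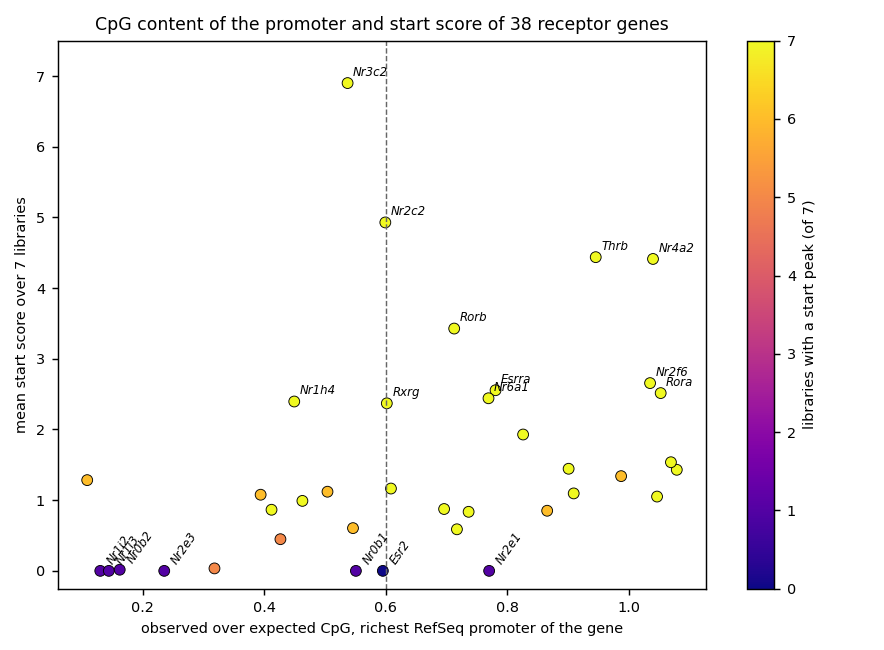
Mean start score over the 7 libraries (vertical axis) against the observed over expected CpG of the richest RefSeq promoter (horizontal axis) for 38 receptor genes, coloured by the number of libraries with a start peak. The dashed line is at 0.6, to the right of which 18 of 21 genes were open in all 7 libraries.

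Peaks around the genes were also counted. Within each gene and 20 kb on either side, the number of peaks among the 50000 strongest was set on a log2(n + 1) scale and fitted with limma on 19791 genes, 40 of them members, since Nr0b1 had none. No member passed an adjusted p of 0.05 in the 3 comparisons, where 0.783% of all genes passed between alpha and beta cells, 0% between alpha and delta cells (1415 genes with an unadjusted p under 0.05) and 0% between beta and delta cells (2067 genes). Esrrb, related to the estrogen receptors, had 6 and 4 peaks in alpha cells, 4, 4 and 4 in beta cells, and 0 and 1 in delta cells, so delta counts were lowest. The difference was 2.06 ± 0.36 for alpha minus delta (limma adjusted p = 0.281) and 1.82 ± 0.33 for beta minus delta (limma adjusted p = 0.166). Nr5a2, for the phospholipid-binding receptor LRH-1, had 2 and 4 in alpha cells, 5, 8 and 7 in beta cells, and 8 and 9 in delta cells, with alpha counts lowest, and differed by -0.96 ± 0.29 for alpha minus beta (limma adjusted p = 0.242) and by -1.29 ± 0.31 for alpha minus delta (limma adjusted p = 0.411). Nr2e1 had 2 and 1 of these peaks in the alpha lists and none in the other 5; it entered the fit only through the alpha lists, so its difference is not read as a test. Thrb had 9 and 14 in alpha cells, 19, 13 and 20 in beta cells, and 18 and 21 in delta cells. Over the family the sum of peaks was 149 to 195 per list, and the median was 3.27 peaks per 100 kb, beside 2.86 over all genes.

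Peaks of all lists were merged into regions. In the windows of members lay 427 regions called in at least 2 libraries, 309 of them more than 1 kb from any GENCODE transcript start. Thrb held 35 such distal regions, Rarb and Nr3c2 31 each, Esr1 27 and Rora 25, while Ppara, Esrra, Nr0b1 and Nr0b2 held none. Of the 309, 24 (7.77%) were called in all 7 libraries, against 7.08% of all 108059 distal regions, 8 (2.59%) in both alpha libraries only, against 2.58%, 4 (1.29%) in the 3 beta libraries only, against 0.663%, 9 (2.91%) in both delta libraries only, against 2.28%, and 3 (0.971%) in all alpha and delta libraries but no beta library, against 1.41%. The counts per cell type were small, and the beta share, of 4 regions, was the one farthest in proportion from that of all distal regions. A beta region needed 3 calls and an alpha or delta region 2, and the long list of beta 1 removes regions from the alpha and delta sets, so the numbers are not comparable between cell types.

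The strongest shared distal region of the family lay in an intron of Esrrg, 103.0 kb inside from the nearest GENCODE start of the gene. RefSeq promoters of Esrrg lie nearer, the nearest of them at chr1:187651991-187652290. The peak of this region ranked at or above the 98.9th percentile in every list, with a -log10 q of 39.0 to 72.4. Next in order came a region 1.90 kb before the nearest Nr4a3 start and one in an intron of Nr5a2, 30.3 kb inside, at or above percentiles 93.2 and 88.9. Of the regions called in 1 cell type, an intronic region of Rarb stood at the percentiles 67.3 (alpha 1) and 73.1 (alpha 2), and a second lay 14.7 kb before the gene. An intronic region of Esr1, 33.3 kb from the nearest start, was at 80.4 and 72.0 in the delta lists, and further delta regions lay in introns of Thrb and Nr1i2. The beta regions, in introns of Nr5a2, Thrb and Esrrb, were weak, and that of Nr5a2 had a -log10 q of 0.08, 2.90 and 1.43 in beta 1, beta 2 and beta 3. Absence from a list was not tested for these regions, and no read count was at hand to measure the signal there.

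For 5 of these regions the 200 bases around the summit are shown (GRCm38, plus strand), with half-site matches, AGGTCA on either strand, in capitals. They are the shared regions of Esrrg (chr1:187712632-187712831) and Nr5a2 (chr1:136910204-136910403), the alpha region of Rarb (chr14:16546758-16546957), the beta region of Nr5a2 (chr1:136858734-136858933) and the delta region of Esr1 (chr10:4645178-4645377).

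Esrrg, all 7: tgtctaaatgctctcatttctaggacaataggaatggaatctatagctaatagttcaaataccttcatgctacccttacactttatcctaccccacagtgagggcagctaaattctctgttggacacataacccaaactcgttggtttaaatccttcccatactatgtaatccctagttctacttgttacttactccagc
Nr5a2, all 7: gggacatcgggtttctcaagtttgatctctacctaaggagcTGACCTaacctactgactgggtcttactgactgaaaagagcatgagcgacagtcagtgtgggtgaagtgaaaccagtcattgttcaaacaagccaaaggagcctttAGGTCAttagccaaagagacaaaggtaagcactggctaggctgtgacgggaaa
Rarb, alpha: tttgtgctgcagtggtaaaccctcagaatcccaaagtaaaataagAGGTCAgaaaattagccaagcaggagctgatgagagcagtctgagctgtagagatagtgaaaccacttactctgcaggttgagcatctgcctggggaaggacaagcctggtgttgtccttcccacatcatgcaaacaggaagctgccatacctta
Nr5a2, beta: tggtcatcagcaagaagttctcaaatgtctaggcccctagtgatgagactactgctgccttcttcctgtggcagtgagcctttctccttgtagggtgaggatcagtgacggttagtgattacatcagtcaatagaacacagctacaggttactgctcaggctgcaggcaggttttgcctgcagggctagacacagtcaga
Esr1, delta: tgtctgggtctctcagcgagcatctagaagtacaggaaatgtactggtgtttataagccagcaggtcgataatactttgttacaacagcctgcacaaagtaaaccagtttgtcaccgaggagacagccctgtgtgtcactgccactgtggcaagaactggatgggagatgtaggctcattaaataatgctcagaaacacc

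The shared Nr5a2 region held 2 matches, 1 on each strand, and the alpha region of Rarb held 1. Over the 427 regions of the members, 51 (11.9%) held at least 1 match, compared with 12.8% of 133698 regions of at least 2 libraries. Of 58 RefSeq promoters of members, 11 (19.0%) held one, compared with 14.4% of 20150 promoters, among them the Thrb promoter and the inner Nr1h4 promoter shown. The NBRE, AAAGGTCA, the element of the Nr4a receptors, which contains the half-site, was in 3 of the 427 regions (0.703%) and in 1.06% of all regions. The glucocorticoid element searched as ACANNNTGT was in 28 (6.56%) and in 6.56% of all regions. Among the 58 member promoters the NBRE was in 2 (3.45%), compared with 1.32% of all promoters. ACANNNTGT was in 1 of them (1.72%), compared with 5.84%. A match is a string in the reference and not a measured binding site.

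Genes that work with the receptors were counted in the same way. Of all protein-coding genes, 62.2%, 63.6% and 59.2% had a start peak in at least 2 alpha, beta and delta replicates. A start peak in all 7 libraries was called at 46.6%. Of 10 coactivator genes, 10, 10 and 9 had a start peak in at least 2 alpha, beta and delta replicates, and 9 had one in all 7 libraries, among them Ncoa1, Crebbp, Ep300 and Ppargc1a, the PGC-1 alpha gene. Of 8 corepressor genes, among them Ncor1 and Hdac3, all 8 were open in each cell type by this count. Of 27 known target genes 19, 18 and 21 were open, with Sgk1, Fkbp5, Klf9, Abca1 and Cpt1a among the 13 open in all 7. Of 26 genes for ligand metabolism and carriers 10, 12 and 9 were open, and the 6 open in all 7 included Hsd11b2, which inactivates glucocorticoids and so leaves the mineralocorticoid receptor to aldosterone. Of 8 further family genes outside the 41, 5, 4 and 6 were open, with Hnf4g, Nr1d2 and Nr4a1 among those open in all 7. Of the coactivator, corepressor, target, ligand and further family genes, 10, 8, 20, 12 and 6 entered the limma test on start scores. None of them passed in any comparison. Of all 13768 genes tested, 13, 0 and 1 passed in the 3 comparisons.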

How the data were processed

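Chromatin accessibility was profiled by ATAC-seq with single-end reads in 2 alpha, 3 beta and 2 delta cell libraries. Per the submitters' processing notes and the methods of the study, the authors checked reads with FastQC, trimmed them with Trimmomatic, aligned them with Bowtie2 to mm10 (mitochondrial genome left out), flagged duplicates by Picard, dropped blacklisted regions and called peaks per library with MACS2. Their versions are not given in the sources used here. Replicates were not pooled. Each deposited list gives a peak's interval, an integer score, the fold enrichment over local background as a ratio, and -log10 p and q; the deposited -log10 p orders the peaks here, with ties ordered by the fold. Lists are not normalized to each other and hold no read counts, so no count test could be run. The lists' lengths limit the precision. The read totals per library that the study states entered no fit here.

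Distinct intervals were intersected (minimum overlap 1 bp) with GENCODE transcript starts ± 1 kb and with gene bodies ± 20 kb, in Python 3.11.15 with numpy 2.4.6 and pandas 2.3.3, checked against bedtools 2.31.1. Start scores and log2(n + 1) peak numbers, with a pseudocount of 1, were fitted with limma 3.58.1 (R 4.3.3, all 7 libraries in 1 fit, trended prior). Genes entered with a score above 0 in at least 2 libraries, or with at least 1 peak in at least 2. Adjustment was by Benjamini-Hochberg, with a threshold of 0.05. The start score fit alone was also run on simulated data with independent noise and differences made in beta libraries only. Shared animals, lane and depth were not simulated, so that run cannot speak to them. P-values measure the spread between libraries of pooled mice, taken as independent although some may share animals. Groups came from the sample labels. Named for a comparison were the 4 members with the largest difference in mean start score in each direction, with the best-ranked member of each role group and Esr1. Regions named were the 3 with the highest lowest percentile in each pattern. Merged regions within 1 kb of a GENCODE start were left out as distal regions, and starts known to RefSeq alone were not considered. Promoters came from RefSeq (GRCm38.p6, 250 bases before to 50 after a start; 38 of 41 members matched), and region sequence from GRCm38. The members and gene lists were chosen with earlier results of these data known. Alternatives changed the rank depth, q, window, starts, pseudocount, filter, blocks and libraries.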

Additional observations from a re-analysis of the deposited data

How the results depend on the processing

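No member passed the limma threshold (Benjamini-Hochberg adjusted) in any alternative, except for peak numbers between alpha and beta cells, where Pparg passed with 25000 peaks per list (adjusted p = 0.0161) and Nr2e1 with peaks reaching a -log10 q of 2 (adjusted p = 0.0272). Pparg had no peak in either alpha list in that fit and entered it only through beta or delta lists. Nr2e1 had peaks in the alpha lists alone and entered its fit only through them. Neither pass is read as a result. The differences of the members named for a comparison kept their direction in 373 of 374 alternatives. The exception was Nr3c2, where alpha minus beta was 0.20 with the gene's 5' end only. Settings in which a member was not tested are left out of the 374. With the gene's 5' end only, 23 members were tested. The members were named for their differences in the same libraries, which the alternatives reuse, so a kept direction is not independent support. Members open in all 7 libraries were 14 when peaks had to reach a -log10 q of 2, and members open in at least 2 alpha or beta replicates were 22 and 21 at the gene's 5' end only. Leaving out 1 library gave 34 to 35 members open in alpha, 26 to 33 in beta (26 without beta 1), 32 to 36 in delta and 24 to 28 in all libraries left. Where 1 list of a cell type was left, its own calls were counted.

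Calls over all genes moved more. Start score calls between alpha and beta cells were 13, and 106 with no filter on genes, 25 at a rank depth of 25000, 0 with only the 2 cell types compared, 0 with the percentile in the own list, and 0 without any 1 library. Between alpha and delta cells they were 0, and 69 with no filter; leaving out a library gave 0. Between beta and delta cells they were 1, and 11 with no filter, 2 at a rank depth of 75000, 0 with only the 2 cell types compared, 0 with the percentile, and 0 without any 1 library. Peak number calls between alpha and beta cells were 155, and 586 with 25000 peaks, 519 in the gene body only, 986 with the q minimum and 0 to 707 without 1 library (707 without beta 3, 574 without beta 2, 534 without beta 1, 0 without either alpha library or delta 1). Between alpha and delta cells they were 0, and 374 with 25000 peaks, 274 in the gene body only, 72 with no filter, 277 with the q minimum and 0 to 282 without 1 library. Between beta and delta cells they were 0, and 416, 371, 115 and 427 in that order, and 0 to 559 without 1 library. The cause was not tested. A lone library left in a group is assumed to vary like the others.

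Deviations of same-numbered libraries correlated between -0.015 and 0.022 over 13768 genes. These values cannot decide whether libraries share animals. By the study's sample list, same-numbered alpha and beta libraries differ in sex, as do same-numbered delta and beta libraries. Alpha and delta cells came from different Cre lines. Within alpha and within delta cells the deviations of both libraries are exact opposites, so each value recurs with its sign flipped. Pairing by animal was not tested. With a block on the replicate number, calls were 0 in all 6 fits, and no member passed.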
